A study of Mus musculus with 4 samples.

Results

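Retinoic acid acts in the testis through nuclear receptors and through the proteins that bring retinoids to them. This account covers 9 of the 32285 genes counted in single cells of mouse testes: the retinoic acid receptors *Rara*, *Rarb* and *Rarg*, the retinoid X receptors *Rxra*, *Rxrb* and *Rxrg*, the cellular retinoic acid-binding proteins *Crabp1* and *Crabp2*, and the retinol transporter *Stra6*. They were chosen by name, and all 9 symbols were present. The measure is the number of unique molecular identifiers (UMIs, 1 per captured transcript) per gene and cell, from testes of C57BL/6N mice at postnatal day 15 (P15) that were dissociated to single cells. Each of the 4 libraries is 1 testis of 1 pup, 2 pups being wild type and 2 *Meioc*-null, and each of 2 batches was a littermate pair with 1 pup of each genotype. The product of *Meioc* acts on messenger RNA when spermatogenic cells enter meiosis, and the comparison asked how its loss changes the transcripts of each cell type. All mice, wild-type ones included, were also heterozygous for a targeted allele of *Hspa2* and homozygous for a *ROSA26* tdTomato reporter that was not recombined. The interstitium was poured off during dissociation, so interstitial cells are under-represented.

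In the testis, retinol reaches the cells from the blood, is oxidised to retinaldehyde and then to retinoic acid, and enters the nucleus, where a heterodimer of RAR and RXR binds paired half-sites in DNA. Without ligand the heterodimer holds corepressors, and with ligand it exchanges them for coactivators. In spermatogonia retinoic acid drives the passage from undifferentiated to differentiating cells and later the entry into meiosis, when it induces *Stra8* and its partner *Meiosin* (listed here as *Gm4969*).

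Promoters from RefSeq (GRCm38.p6, 250 bases before and 50 bases after each start site, 300 bases in all) were searched on both strands for the letters that such heterodimers bind. A promoter was held for 8 of the 9 genes, 18 promoters in all. *Crabp2* had none. A direct repeat of 2 half-sites 5 bases apart (direct repeat 5) was found in 0.0974% of 32851 promoters. Among the 18 promoters it was in 1, that of *Rarb*, from base -53 to base -37 counted from the start site. The same repeat spaced by 1 base (0.222% of promoters) or by 2 bases (0.268%) was in none of the 18. The letters GCGGGA, the core that E2F factors bind, were in 20.0% of promoters and in 6 of these 18, and the E-box CACGTG was in 7.15% and in 2 of these 18, overlapping promoters of *Rara* that share the same 6 letters. A match of letters is a description of the sequence and not a site of binding. 4 promoters are shown, the *Rarb* promoter because it alone carries the repeat, and those of *Rara*, *Rarg* and *Crabp1* because these 3 genes were called between the genotypes in both cluster 8 and cluster 9 below. Capitals mark the direct repeat in *Rarb*, the E-box in *Rara* and GCGGGA in *Rarg* and *Crabp1*.
Rarb (chr14:16575427-16575726, minus strand): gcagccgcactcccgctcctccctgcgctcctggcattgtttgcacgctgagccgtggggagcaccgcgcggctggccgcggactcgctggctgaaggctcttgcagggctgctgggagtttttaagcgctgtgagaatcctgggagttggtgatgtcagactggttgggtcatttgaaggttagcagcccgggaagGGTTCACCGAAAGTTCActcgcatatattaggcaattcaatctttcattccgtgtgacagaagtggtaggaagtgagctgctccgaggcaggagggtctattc
Rara (chr11:98937446-98937745, plus strand): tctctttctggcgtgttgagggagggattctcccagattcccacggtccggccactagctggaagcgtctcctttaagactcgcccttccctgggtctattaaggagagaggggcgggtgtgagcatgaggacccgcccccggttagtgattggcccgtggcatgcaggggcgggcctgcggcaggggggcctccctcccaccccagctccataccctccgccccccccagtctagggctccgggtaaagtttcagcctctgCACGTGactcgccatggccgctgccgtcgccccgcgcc
Rarg (chr15:102257473-102257772, minus strand): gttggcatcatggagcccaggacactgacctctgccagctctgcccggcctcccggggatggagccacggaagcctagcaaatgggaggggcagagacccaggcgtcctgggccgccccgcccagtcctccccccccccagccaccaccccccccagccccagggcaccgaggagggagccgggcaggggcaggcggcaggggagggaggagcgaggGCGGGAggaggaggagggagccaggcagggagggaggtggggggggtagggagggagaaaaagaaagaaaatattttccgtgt
Crabp1 (chr9:54764498-54764797, plus strand): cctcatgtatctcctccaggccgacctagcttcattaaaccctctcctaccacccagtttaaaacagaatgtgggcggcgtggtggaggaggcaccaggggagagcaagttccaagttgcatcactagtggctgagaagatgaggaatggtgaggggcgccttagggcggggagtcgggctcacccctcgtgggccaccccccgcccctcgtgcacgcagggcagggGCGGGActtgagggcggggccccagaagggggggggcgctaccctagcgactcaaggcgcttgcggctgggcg

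Barcodes with more than 1000 detected genes and under 10% mitochondrial UMIs were kept, and likely doublets were removed. This left 5644 and 7505 cells in wild type replicates 1 and 2 and 6554 and 6522 cells in *Meioc*-null replicates 1 and 2. Median depth per cell was between 11701.5 and 14421.5 UMIs. Any pair of libraries shared 45 to 73 barcodes, at most 0.501% of a library. Cells formed 16 clusters, 10 of them germ-cell clusters, and the 9 genes were kept out of the genes that placed cells. Clusters were formed from wild-type cells, and each *Meioc*-null cell was placed in the cluster of the wild-type cells nearest to it. A state found only in *Meioc*-null testes thus has no cluster of its own here. The paper describes a cluster made up of *Meioc*-null spermatocytes, mainly in G2/M phase, and where such cells lie here was not tested. Cluster 1 had markers of undifferentiated spermatogonia (6 of 7 detected), clusters 2 to 6 of differentiating spermatogonia (6 or 7 of 7), cluster 7 of preleptotene cells (4 of 4), cluster 9 of early spermatocytes (7 of 8) and cluster 10 of pachytene spermatocytes (5 of 8). Cluster 8 had 4 of 4 preleptotene and 7 of 8 early spermatocyte markers and is called by its number. Somatic clusters were Sertoli-like (A, with a wild-type median of 36771.5 UMIs per cell, and B, with 2163.5), peritubular myoid-like, interstitial fibroblast-like and Leydig-like. *Meioc* transcripts were counted in both genotypes, at 294 and 291 UMIs per 1000000 (CPM) over wild-type germ cells and 343 and 283 CPM over *Meioc*-null ones, so these 3′ counts do not check the genotype labels. CPM values sum all cells of a cluster in 1 library, which cannot tell a few cells with many transcripts from many cells with few.

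*Rara* (chromosome 11, 98927818 to 98974942, plus strand), the receptor that Sertoli cells are known to use, was the only RAR with its highest level outside the germ line. In wild type it stood at 96.9 and 93.6 CPM in Sertoli A and at 75.7 and 59.6 CPM in Sertoli B. *Meioc*-null Sertoli A cells held 99.7 and 87.7 CPM and Sertoli B cells 78.9 and 80.7 CPM, so the genotypes overlapped in A. Fibroblast-like (40.5 and 43.5 CPM) and myoid-like cells (31.4 and 36.3 CPM) followed in wild type, and the 2 libraries of each of these 4 clusters did not overlap with those of the next. Within the germ line *Rara* was highest in undifferentiated spermatogonia, at 29.5 and 26.0 CPM in wild type, which was 3.28 and 3.60 times below Sertoli A of the same library. It was lower in each later cluster in the mean, down to 2.13 and 1.71 CPM in cluster 9, 13.9 and 15.2 times below cluster 1. The wild-type ranges of clusters 1 and 2 overlapped, as did those of 2 and 3, of 5 and 6 and of 9 and 10. *Rara* was held by all 10 germ-cell clusters and all 6 other clusters, where held means at least 3 UMIs in both wild-type libraries.

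*Rarb* (chromosome 14, 16430839 to 16819156, minus strand) was held by 2 of 16 clusters, both spermatogonial. Its counts were low: cluster 1 had 23 and 22 UMIs in wild type against 22 and 34 in *Meioc*-null, and cluster 2 had 31 and 67 in wild type against 49 and 100 in *Meioc*-null. In CPM, cluster 2 (2.33 and 2.88 in wild type, 2.99 and 4.01 in *Meioc*-null) was above cluster 1 (1.88 and 1.55, then 1.64 and 2.03) in every library, by 1.24 to 1.97 times. From cluster 3 onwards no library had more than 2 UMIs in a germ-cell cluster. Sertoli A, where *Rara* was highest, had 0 UMIs of *Rarb* in all 4 libraries, which allows up to 0.580, 0.647, 1.04 and 0.860 CPM in wild type replicates 1 and 2 and *Meioc*-null replicates 1 and 2, for counting error only. *Rarb*, a gene known to be induced by retinoic acid itself, is the one with the direct repeat shown above. The gene overlaps *Top2b* and *Gm48162* on the opposite strand.

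*Rarg* (chromosome 15, 102234938 to 102257517, minus strand), the receptor known for its part in the differentiation of spermatogonia, was spread evenly over spermatogonia and preleptotene cells. Wild-type means from cluster 1 to cluster 7 ran from 14.3 to 23.0 CPM, and each overlapped with the next in order of level. The drop came after cluster 7: wild type stood at 20.1 and 18.6 CPM in cluster 7 and at 3.68 and 3.37 CPM in cluster 8, 5.46 and 5.51 times lower. Sertoli A was near the bottom of the order for *Rarg*, with 2 and 5 UMIs in wild type (0.387 and 1.08 CPM) and 6 and 9 in *Meioc*-null. Among named somatic clusters left after doublet removal *Rarg* was highest in fibroblast-like cells, at 15.0 and 6.66 CPM in wild type, and the unnamed one held 12.3 and 12.9 CPM.

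The retinoid X receptors partner RARs and many other nuclear receptors. *Rxra* (chromosome 2, 27676440 to 27762957, plus strand) was highest, among the clusters left after doublet removal, in fibroblast-like cells (29.6 and 27.0 CPM in wild type) and myoid-like cells (27.7 and 27.5 CPM), whose ranges overlapped. Sertoli A held less, at 3.29 and 4.53 CPM. In the germ line it was highest in cluster 1 (24.0 and 20.7 CPM) and lay between 16.7 and 19.6 CPM in clusters 2 to 4. It was lower in cluster 6 (7.68 and 6.91 CPM), and by cluster 7 wild type held 1.73 and 2.64 CPM, 4.45 and 2.62 times below cluster 6. In *Meioc*-null cells the same step was 1.36 and 1.23 times.

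*Rxrb* (chromosome 17, 34031812 to 34038399, plus strand) had the most even profile of the family. Wild-type means in clusters 1 to 9 lay between 38.1 and 58.3 CPM, and in order of level each overlapped with the next. Sertoli A (56.5 and 47.0 CPM) and Sertoli B (55.4 and 44.3 CPM) were in the same range. Pachytene spermatocytes held less, at 27.7 and 25.5 CPM, 2.19 and 1.66 times below cluster 9. Wild type replicate 1 exceeded replicate 2 in each of the 10 germ-cell clusters.

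*Rxrg* (chromosome 1, 167598384 to 167639623, plus strand) was barely counted, with 37 UMIs over both wild-type libraries and 43 over both *Meioc*-null ones. Cluster 1 was the only one of 16 that held it, with 14 and 11 UMIs in wild type (1.14 and 0.777 CPM) and 11 and 13 in *Meioc*-null (0.819 and 0.777 CPM).

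*Crabp1* (chromosome 9, 54764748 to 54773110, plus strand) encodes a cytosolic protein that binds retinoic acid and leads it to storage or breakdown. Among germ-cell clusters it was highest in differentiating clusters 2 to 5. Wild-type undifferentiated spermatogonia held 146 and 152 CPM, and cluster 2, the first differentiating cluster, held 613 and 601 CPM, 4.19 and 3.95 times more. The *Meioc*-null libraries took the same step by 3.62 and 3.61 times, from 154 and 158 to 558 and 571 CPM. From cluster 2 the wild-type level was lower in each following cluster. It was 8.10 and 8.50 times below cluster 2 by cluster 7 (75.7 and 70.7 CPM) and 52.3 and 79.5 times below by cluster 9 (11.7 and 7.56 CPM). Over wild-type cells, 97.0% of its UMIs lay in germ-cell clusters.

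Small numbers of *Crabp1* UMIs also appeared in the 5 named somatic clusters, and they went with those of germ-cell markers. The summed level of *Ddx4*, *Dazl*, *Mael*, *Rnf17* and *Tdrd1* in myoid-like cells was 4.42, 2.37, 3.38 and 2.01% of that in germ cells of the same library (the wild-type libraries first, each genotype in the order of replicates 1 and 2), and *Crabp1* stood at 4.56, 2.19, 4.39 and 2.73% of its germ-cell level. In Sertoli B, the shallow cluster, the markers stood at 30.0, 9.46, 19.7 and 13.6% and *Crabp1* at 35.4, 14.3, 22.0 and 13.1%. In Leydig-like cells *Crabp1* was below the markers in each library (0.770 against 3.19% in wild type replicate 2). As its share was of a like size to that of the markers or under it, *Crabp1* in the named somatic clusters is not read as expression. Its source there was not tested. The shallow unnamed cluster, led by *Gzmc*, *S100a4* and *Cd52*, stood apart. Its germ-cell markers stood at 71.7, 80.3, 84.5 and 56.5% of their germ-cell level and *Crabp1* at 249, 295, 219 and 162% (532 and 701 CPM in wild type). Germ-cell RNA and *Crabp1* were thus both high in it. This cluster entered no genotype test, but it is among the 16 profiles correlated below.

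**Figure D1:**
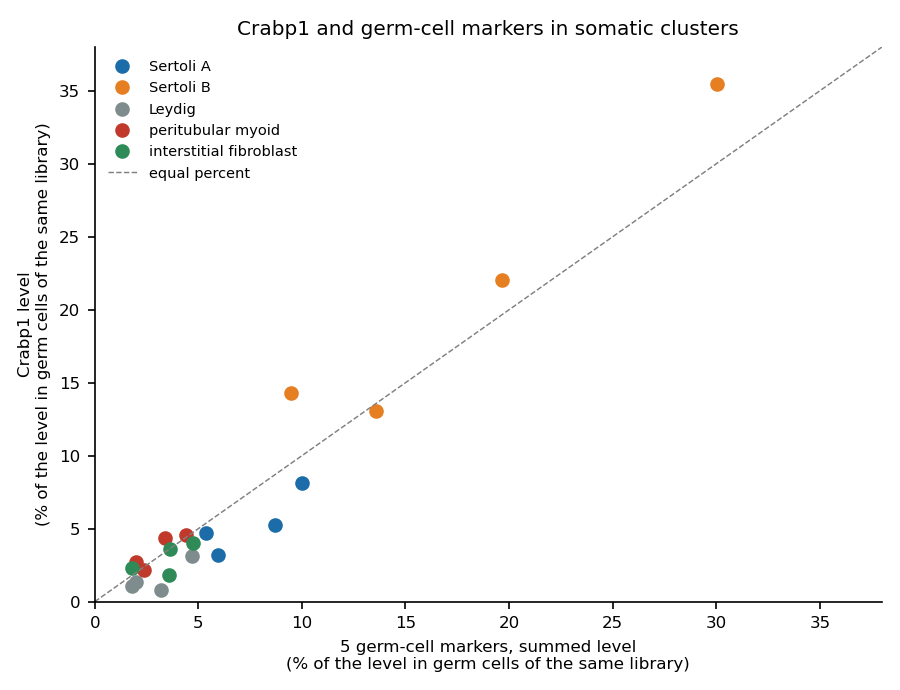
*Crabp1* level (vertical, % of its level in germ cells of the same library) against the summed level of 5 germ-cell markers (horizontal, in the same unit) in the 5 named somatic clusters, 1 point per library. The points lie near the dashed line of equal percent, with Sertoli B highest on both axes (markers 30.0% and *Crabp1* 35.4% in wild type replicate 1).

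*Crabp2* (chromosome 3, 87948666 to 87953376, plus strand) encodes the partner protein that carries retinoic acid to RARs in the nucleus. In wild type it had its own profile, with its highest level in preleptotene cells. Wild-type cluster 7 held 9.82 and 8.27 CPM (91 and 69 UMIs), 2.51 and 1.88 times the level of cluster 6 of the same library. Cluster 2 held 4.44 and 3.91 CPM. In cluster 8 wild type had 1.96 and 1.40 CPM, 5.01 and 5.93 times below cluster 7, and in cluster 9 it had 0 and 5 UMIs. None of the 6 somatic and unnamed clusters held *Crabp2*.

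*Stra6* (chromosome 9, 58063788 to 58153996, plus strand), a membrane protein that takes up retinol from its carrier in blood, was a Sertoli transcript. Sertoli A held 74.3 and 56.7 CPM in wild type against 93.9 and 81.7 CPM in *Meioc*-null. Sertoli B had 18.9 and 3.41 CPM in wild type (14 and 2 UMIs) against 32.4 and 23.3 CPM in *Meioc*-null (32 and 17 UMIs). The highest wild-type mean in any germ-cell cluster was 0.538 CPM. In cluster 1 the 4 libraries held *Stra6* at 0.879, 0.747, 1.11 and 0.293% of its Sertoli A level, and the 6 Sertoli markers there stood at 0.837, 0.498, 1.14 and 0.514% of theirs. *Stra6* there was thus near the share of the Sertoli markers, and its source was not tested. Over all germ cells it stood at 0.595, 0.394, 0.786 and 0.244%, and the markers at 0.822, 0.555, 1.26 and 0.546%. In cluster 10, with 7 and 5 UMIs in wild type, *Stra6* was above the markers, at 0.747 and 0.737% against 0.494 and 0.259%. The locus overlaps *Ccdc33* on the opposite strand and *Gm16131* on the same strand.

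**Figure D2:**
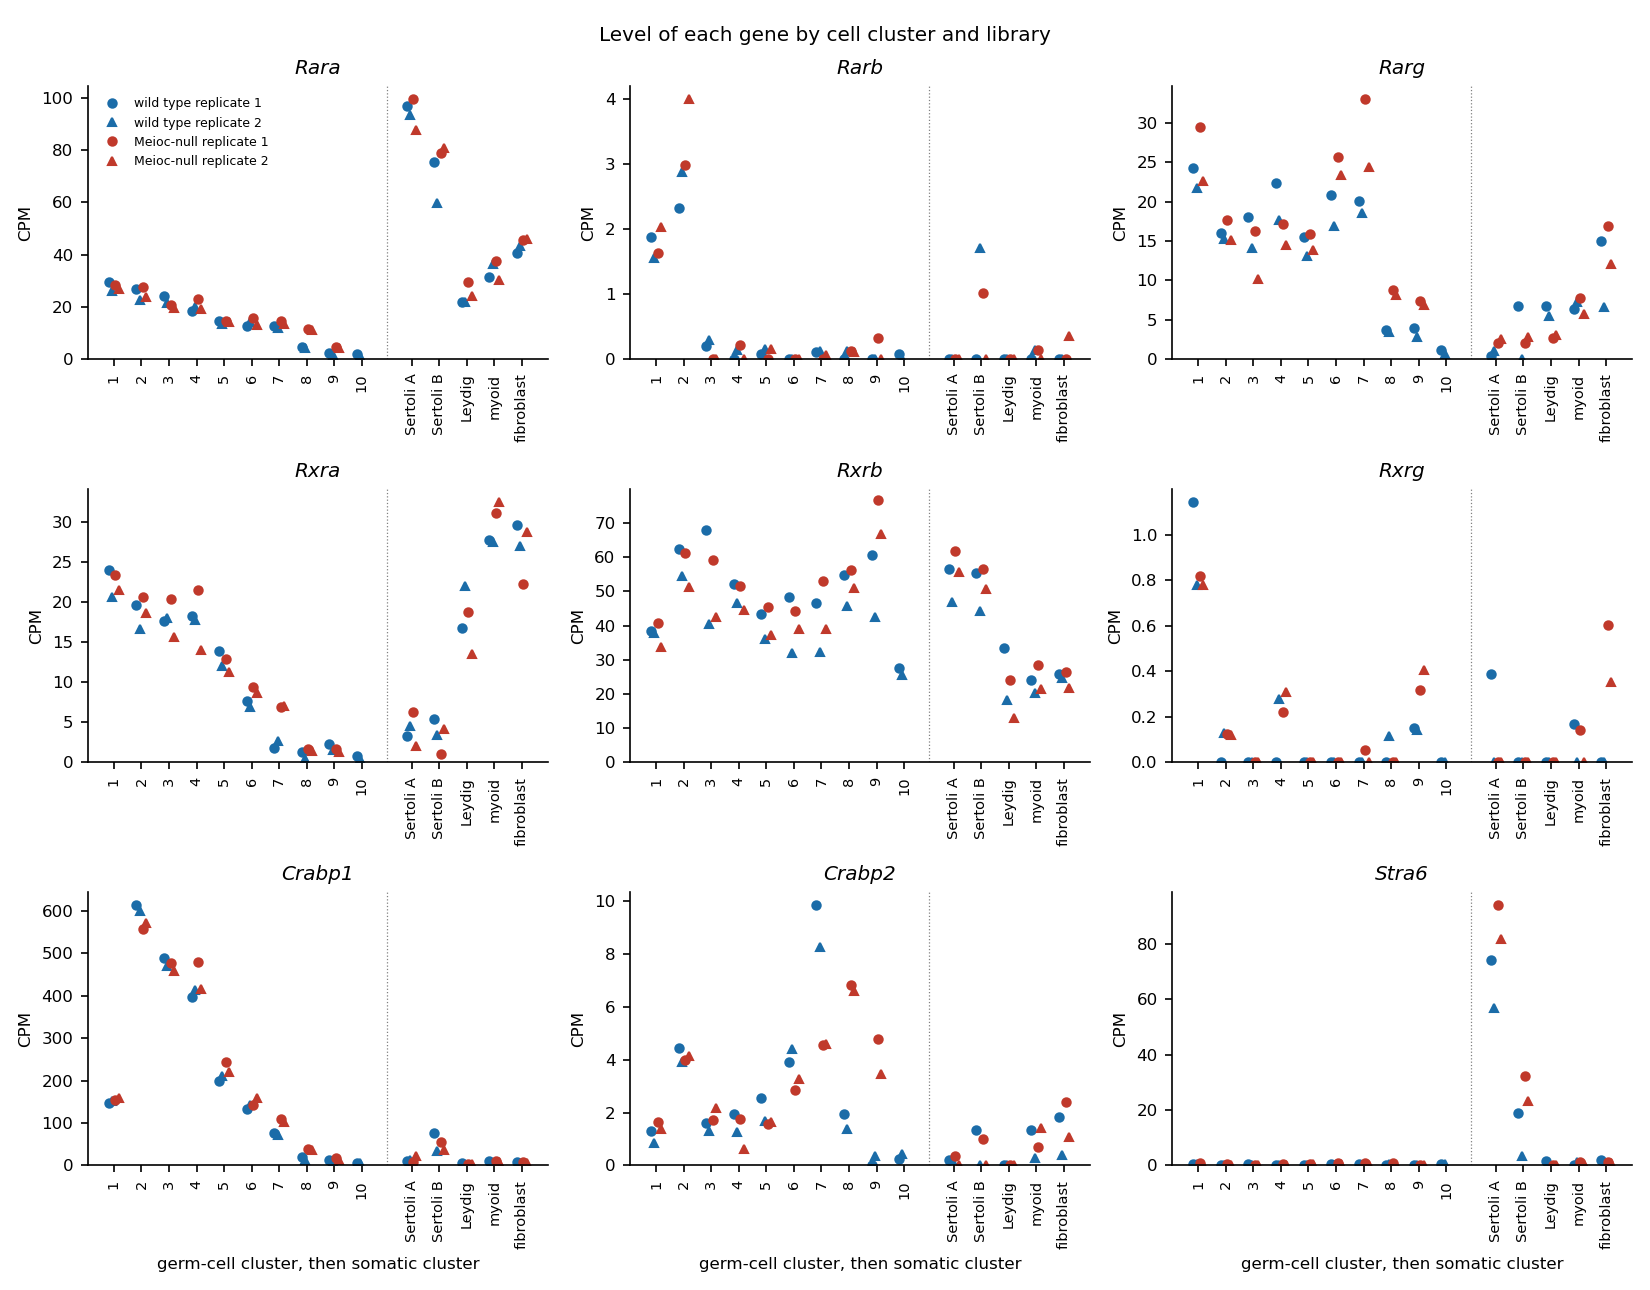
CPM of each of the 9 genes (vertical, linear from 0, its own scale per gene) in germ-cell clusters 1 to 10 and in the somatic clusters, 1 point per library, blue for wild type and red for *Meioc*-null, circles for replicate 1 and triangles for replicate 2. Among the clusters shown *Rara* and *Stra6* are highest in Sertoli A, and *Crabp1* in cluster 2 (613 and 601 CPM in wild type). *Crabp2* of wild type is highest in cluster 7 (9.82 and 8.27 CPM). No *Meioc*-null cells were placed in cluster 10.

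Genes with a like profile were sought by the correlation of log2(CPM + 1) over 16 wild-type mean profiles, among 17888 genes, as a description over clusters that share libraries. For *Crabp1* the 3 most alike were *Radx*, *Lmo1* and *Sohlh1* (Pearson r 0.980, 0.975 and 0.972), for *Rara* *Ctdspl*, *Alg14* and *Litaf* (0.978, 0.971 and 0.959), and for *Stra6* *Tnfrsf11b*, *Slco1a5* and *Slc9a2* (0.990, 0.988 and 0.987). *Rarb* was followed by *Foxn4*, *Zfp600* and *Unc5a* (0.990, 0.965 and 0.957) and *Crabp2* by *Sox15*, *Kcnj11* and *Efnb3* (0.899, 0.898 and 0.890). *Rarg* (*Pycr1*, *Sh3kbp1*, *Rpl32*, 0.930 to 0.922) and *Rxra* (*Rras*, *Rps3a1*, *Rps2*, 0.964 to 0.947) had ribosomal protein genes among theirs. *Rxrb*, the most even gene, had the lowest values (*Rbm19*, *Mrps17* and *Klhl11*, 0.895, 0.885 and 0.882).

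Endothelial and macrophage clusters formed only when doublets were kept in, since their removal took 75.4% of endothelial cells and 93.2 and 60.4% of the cells of the 2 macrophage clusters. Over all 4 libraries the endothelial cluster held *Rara* at 39.6 CPM (108 UMIs) and *Rxra* at 33.0 CPM (90 UMIs). The first macrophage cluster, led by *F13a1* and *Cbr2*, held *Rxra* at 55.8 CPM (67 UMIs) and *Rara* at 41.6 CPM (50 UMIs). *Crabp2* and *Stra6* had 0 UMIs in it. In the second, led by *Ccl4* and *Cd52*, *Rxrb* stood at 29.9 CPM (47 UMIs, 2 of them in wild type replicate 1) and *Rara* at 20.4 CPM (32 UMIs). *Crabp1* was at 26.0, 38.3 and 35.0 CPM in the 3 clusters in that order, and the germ-cell marker *Ddx4* at 19.4, 30.8 and 35.0 CPM. Most barcodes here were called doublets, so the levels may include RNA of other cells, which was not tested, and no genotype test was made.

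The genotype comparison asked in which cell types these genes differ without *Meioc*. UMIs were summed per library and cluster and fitted across all genes with edgeR's quasi-likelihood test. Log2 fold changes are wild type over *Meioc*-null, so that a negative value is a higher level in *Meioc*-null cells. A gene was called at a Benjamini-Hochberg adjusted p under 0.05 within its cluster and an absolute log2 fold change over 0.1. With 2 pups per genotype, p-values measure the spread among these pups only, and the fit draws that spread in part from other genes. A gene needed 40 UMIs over the 4 libraries of a cluster, which gave 53 tests of these genes in the 9 germ-cell clusters with at least 50 cells in every library. By the placing used here, 0 *Meioc*-null cells fell in cluster 10, so it had no comparison. The paper's own clustering designated some *Meioc*-null cells as pachytene spermatocytes.

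Up to the end of spermatogonial differentiation no difference was called. In clusters 1 to 6 edgeR called 0 of 37 tests of these genes, and 0 of them had an unadjusted p under 0.05. The background was low too: 0, 0.0204, 0.115, 0.0267, 0.00833 and 0.900% of all genes were called in clusters 1 to 6, and between 168 and 1147 genes per cluster had an unadjusted p under 0.05. For *Crabp1* in cluster 2, its highest level among germ-cell clusters, the log2 fold change was 0.13 with a 95% interval from -0.21 to 0.47. For *Rarb* in cluster 2 it was -0.40, from -1.02 to 0.22, and for *Rarg* in cluster 6 it was -0.32, from -0.67 to 0.02.

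In the 3 clusters that follow, 12 of 16 tests were called, and 6 of the 9 genes had at least 1 call (*Rara*, *Rarg*, *Rxra*, *Rxrb*, *Crabp1* and *Crabp2*). 11 of the 12 calls were higher in *Meioc*-null cells. All 12 had the same direction in both littermate pairs, which their selection as calls in the same 4 libraries favours. Many other genes differed in these clusters as well: edgeR called 14.8% of genes in cluster 7, 34.6% in cluster 8 and 57.7% in cluster 9, so that most genes were called in the last. Over the 3 clusters, 18.9% of tests of any gene were called and higher in *Meioc*-null. Each of the 3 clusters had 4 calls of these genes, out of 6 tested in cluster 7 and 5 tested in each of the other two. Their median log2 fold changes were -0.32, -1.21 and -0.69, and those of all genes were -0.00444, -0.0337 and -0.0128. Without wild type replicate 2, 4 of the 12 calls remained, and DESeq2 kept 6.

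**Figure D3:**
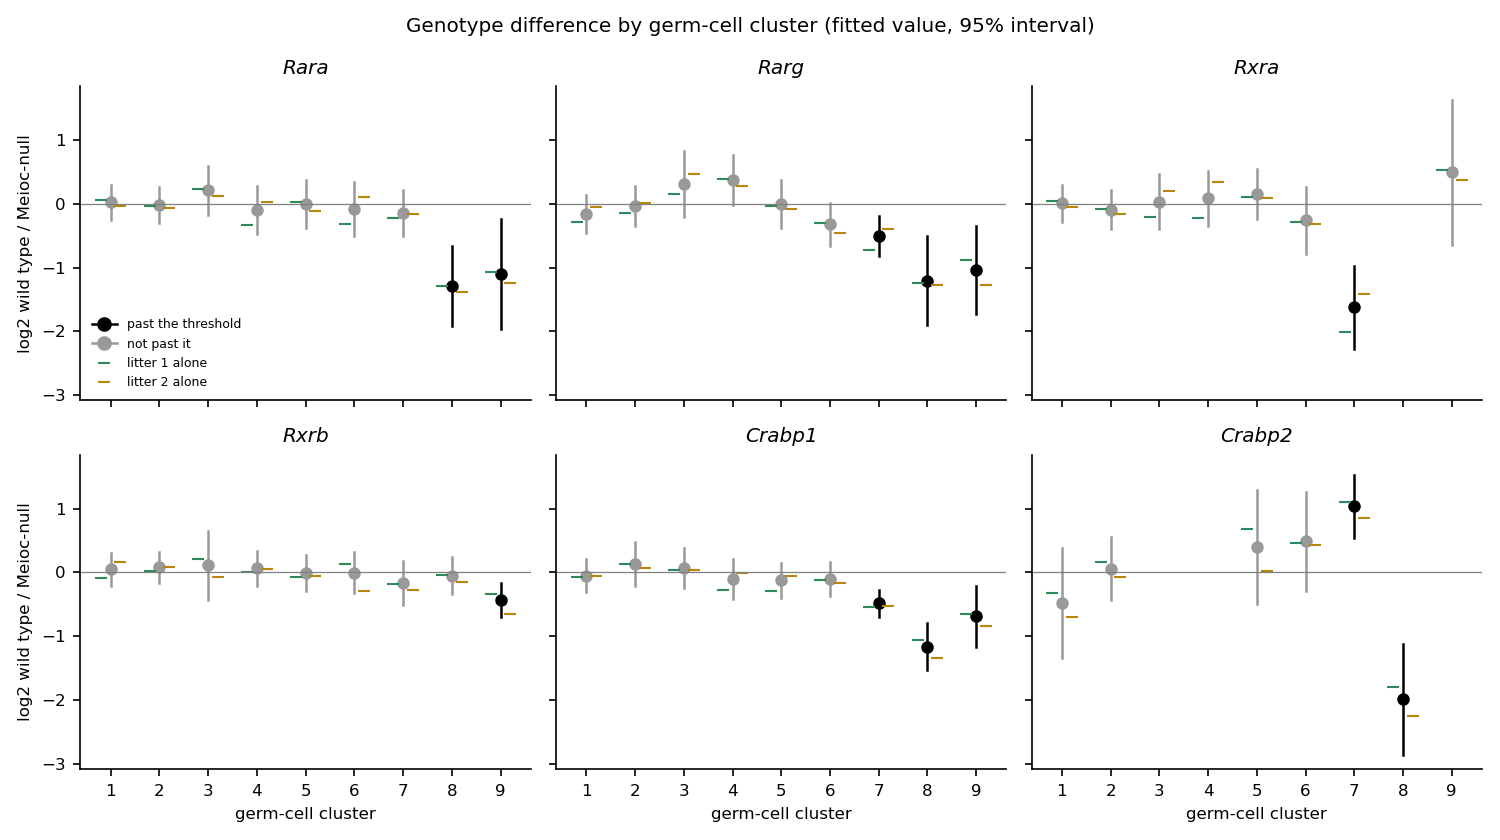
Log2 fold change of wild type over *Meioc*-null (vertical) in germ-cell clusters 1 to 9 (horizontal) for the 6 genes with a call, as fitted values with 95% intervals, black where called. Short bars give each littermate pair alone. No effect is called up to cluster 6, where fitted values run from -0.48 to 0.49 (both *Crabp2*), and *Rara*, *Rarg* and *Crabp1* lie below 0 in clusters 8 and 9, while *Crabp2* is above 0 in cluster 7 (1.04) and below it in cluster 8 (-1.99).

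In preleptotene-like cluster 7, *Rxra* stood at 1.73 and 2.64 CPM in wild type against 6.93 and 7.00 CPM in *Meioc*-null (16 and 22 against 131 and 102 UMIs). The *Meioc*-null libraries were both above the wild-type ones, and the log2 fold change was -1.63 (SE 0.30, adjusted p = 0.0037). The level of *Meioc*-null cluster 7 was near that of wild-type cluster 6. This call remained in each of the fits without 1 library, and the value was -2.57 with the genes called between genotypes left out of the placing of cells. *Crabp2*, which peaked here in wild type, went the other way, with 9.82 and 8.27 CPM in wild type against 4.55 and 4.6 CPM in *Meioc*-null. This differs from the paper, which reports no effect of MEIOC on *Crabp2* expression. With Bonferroni over all genes and clusters *Crabp2* was not called here either, nor was any other of these genes. The log2 fold change of *Crabp2* was 1.04 (SE 0.23, adjusted p = 0.00934). It was not called without *Meioc*-null replicate 1 (0.96, adjusted p = 0.0612). *Crabp1* was higher in *Meioc*-null, at 110 and 102 CPM against 75.7 and 70.7 CPM (log2 fold change -0.48, SE 0.10, adjusted p = 0.00573), and kept its call in each fit without 1 library. *Rarg* stood at 33.0 and 24.4 CPM against 20.1 and 18.6 CPM (log2 fold change -0.51, SE 0.14, adjusted p = 0.0312), and it was not called without wild type replicate 1 (adjusted p = 0.0778), wild type replicate 2 (0.0771) or *Meioc*-null replicate 1 (0.296), nor by DESeq2 (0.120), with doublets kept in (0.0586), with 15 neighbours (0.0820) or with the 9 genes and pathway genes allowed in the placing (0.0539). *Rara* and *Rxrb* were not called in cluster 7 (log2 fold changes -0.14, 95% interval -0.51 to 0.22, and -0.17, -0.50 to 0.17).

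In cluster 8 the wild-type levels of *Rara*, *Rarg*, *Crabp1* and *Crabp2* were low, and those of *Meioc*-null cells were 2.24 to 3.97 times higher. *Crabp2* stood at 1.96 and 1.40 CPM in wild type against 6.83 and 6.61 CPM in *Meioc*-null (8 and 12 against 54 and 61 UMIs). The log2 fold change was -1.99 (SE 0.42, adjusted p = 0.000989). In *Meioc*-null libraries cluster 8 was thus the highest cluster for *Crabp2*, 1.5 and 1.44 times above cluster 7. This call depended on how cells were placed: with the genes called between genotypes left out of the placing, the value was -0.86 (adjusted p = 0.211), while it was -3.26 with 15 neighbours, -3.06 with the 9 genes and pathway genes allowed in the placing and -2.57 with doublets kept in. Without wild type replicate 2 the adjusted p was 0.0506. *Crabp1* stood at 19.1 and 14.0 CPM in wild type against 39.7 and 35.5 CPM in *Meioc*-null (log2 fold change -1.17, SE 0.18, adjusted p = 4.8e-05), the lowest adjusted p among these genes. *Rara* stood at 4.66 and 4.30 against 11.4 and 11.3 CPM (log2 fold change -1.29, SE 0.30, adjusted p = 0.00245). *Rara* of *Meioc*-null cells was 1.29 and 1.19 times lower in cluster 8 than in cluster 7, where wild type took that step by 2.69 and 2.79 times. *Rarg* stood at 3.68 and 3.37 against 8.72 and 8.12 CPM (log2 fold change -1.21, SE 0.33, adjusted p = 0.00851). *Rara* and *Rarg* were not called without wild type replicate 2 (adjusted p = 0.0524 and 0.0940), and DESeq2 did not call *Rarg* (0.0531). *Rxrb* was not called (-0.05, 95% interval -0.34 to 0.24), and *Rxra* had too few UMIs for a test, with 5 and 4 in wild type against 13 and 13 in *Meioc*-null.

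In early spermatocyte-like cluster 9, 4 of these genes were higher in *Meioc*-null cells. *Rara* stood at 2.13 and 1.71 CPM in wild type against 4.46 and 4.06 CPM in *Meioc*-null (log2 fold change -1.10, SE 0.43, adjusted p = 0.0264). *Rarg* stood at 3.96 and 2.85 against 7.32 and 6.90 CPM (-1.03, SE 0.34, adjusted p = 0.00936), and *Crabp1* at 11.7 and 7.56 against 18.5 and 13.6 CPM (-0.69, SE 0.24, adjusted p = 0.0129). *Rxrb* was called here alone, at 60.6 and 42.4 against 76.7 and 66.8 CPM (-0.43, SE 0.13, adjusted p = 0.00619), and with the called genes left out of the placing its value was -0.13 (adjusted p = 0.413). None of these 4 calls remained without wild type replicate 2 (adjusted p from 0.119 to 0.261), where the log2 fold changes were -0.96 for *Rara*, -0.82 for *Rarg*, -0.40 for *Crabp1* and -0.21 for *Rxrb*. Without *Meioc*-null replicate 1 those of *Rara* (0.0685) and *Crabp1* (0.111) were lost, and without *Meioc*-null replicate 2 those of *Rara* (0.0963) and *Rarg* (0.0541). DESeq2 called none of the 4 (adjusted p from 0.0792 to 0.154). With doublets kept in, *Rara* (-0.75, adjusted p = 0.123) and *Crabp1* (-0.34, adjusted p = 0.205) were not called. *Rara* was also lost with 15 neighbours in place of 20 (-0.52, adjusted p = 0.416), with no filter on low counts (adjusted p = 0.0626) and with the 9 genes and pathway genes allowed in the placing (0.0897). *Crabp2* had 0 and 5 UMIs in wild type against 15 and 17 in *Meioc*-null, under the 40 UMIs needed, and *Rxra* was not called (0.49, 95% interval -0.64 to 1.62).

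Cells placed in clusters 8 and 9 differed between the genotypes in depth and in stage markers too. Median UMIs per cell were 9757 in wild type against 12056 in *Meioc*-null in cluster 8. In cluster 9 they were 12105 against 15467.5. In cluster 8 the 4 preleptotene markers summed to 1401 and 1241 CPM in wild type and to 2800 and 2867 CPM in *Meioc*-null, and 4 of 4 were higher in both *Meioc*-null libraries. These 4 are *Stra8*, *Meioc*, *Gm4969* and *Prdm9*. *Stra8* and *Gm4969* are known retinoic acid targets described below, so the sum counts their genotype differences again. *Stra8* alone stood at 421 and 321 CPM in wild type against 1519 and 1636 CPM in *Meioc*-null in cluster 8. In cluster 9 it stood at 15.4 and 16.8 against 521 and 490 CPM. Of the 7 differentiating markers, which include the targets *Kit* and *Sohlh1*, 6 were higher in both *Meioc*-null libraries in cluster 8. In cluster 9 the differentiating markers summed to 238 and 220 CPM against 928 and 804 CPM, with 3 of 7 higher in both *Meioc*-null libraries. There the preleptotene markers summed to 498 and 529 CPM against 1308 and 1325 CPM, and the 8 pachytene markers to 881 and 763 CPM against 282 and 291 CPM. The 8 early spermatocyte markers summed to 5272 and 4668 against 6112 and 5507 CPM in cluster 9. Of these, 4 were higher in both wild-type libraries and 4 in both *Meioc*-null ones. In cluster 8 they summed to 5094 and 4871 against 5991 and 5729 CPM, with 3 higher in both libraries of each genotype. The undifferentiated markers summed to 20.2 and 15.8 against 6.68 and 4.87 CPM in cluster 9. In cluster 7 the preleptotene sums were closer, at 3032 and 3032 against 3418 and 3237 CPM. Somatic markers that were higher in both *Meioc*-null libraries in cluster 8 numbered 0 of 6 for Sertoli cells, 0 of 5 for myoid cells, 2 of 6 for macrophages, 2 of 6 for Leydig cells, 1 of 5 for endothelium and 1 of 5 for fibroblasts. The genotypes overlapped in the summed level of each of these 6 lists, and the Sertoli markers, the highest, summed to 89.0 and 58.4 CPM in wild type against 105 and 49.2 CPM in *Meioc*-null. The part of stage within a cluster in the differences above was not tested.

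Whether the genotype effect itself differed between stages was tested in 1 model over differentiating clusters 2 to 6 and early spermatocyte-like cluster 9, with the animal as a block. Of the 8 genes fitted, 5 were past the threshold, against 39.4% of all genes, and 1 of these, *Crabp2*, is not read as a call. The difference in log2 fold change, early minus differentiating, was -1.04 for *Rara* (SE 0.39, adjusted p = 0.0213), -0.99 for *Rarg* (SE 0.32, adjusted p = 0.00704), -0.70 for *Crabp1* (SE 0.24, adjusted p = 0.0311) and -0.45 for *Rxrb* (SE 0.15, adjusted p = 0.00797). *Crabp2* had too few UMIs for a test within cluster 9 (0 and 5 against 15 and 17) and entered this model through its UMIs in clusters 2 to 6. Its fitted value of -4.0 ran from -3.31 to -9.86 in fits without 1 library, the latter where the wild-type library left had 0 UMIs in cluster 9, and it is no measure of size. None of the 4 others was called without wild type replicate 2 or without *Meioc*-null replicate 2, and 1 of the 4, *Rarg*, was called without *Meioc*-null replicate 1. *Crabp1* moved to -0.15 without wild type replicate 2 and to -0.37 without *Meioc*-null replicate 1. With doublets kept in, *Rara* (adjusted p = 0.195) and *Crabp1* (-0.29, adjusted p = 0.208) were not called, nor were *Rara* and *Rxrb* with no filter on low counts (0.0572 for each) or *Crabp1* with DESeq2's size factors (0.120). With clusters 8 and 9 as 1 class, a choice made after seeing the data, *Rara*, *Rarg* and *Crabp1* were called (*Crabp1* at -1.33) and *Rxrb* was not. For *Rxra* the difference was 0.53 (95% interval -0.49 to 1.55).

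In somatic cells 0 of 19 tests were called by edgeR, and by DESeq2 also 0. The share of all genes called was 0.0998% in Sertoli A, 0% in Sertoli B, 0.103% in myoid-like and 0.0375% in fibroblast-like cells, and 184 to 378 genes per cluster had an unadjusted p under 0.05. 1 of the 19 tests had an unadjusted p under 0.05, *Stra6* in Sertoli B (log2 fold change -1.19, 95% interval -2.36 to -0.02, adjusted p = 0.999). It moved to -2.84 without wild type replicate 1, which leaves the 2 UMIs of wild type replicate 2, and to -0.57 without wild type replicate 2. *Stra6* in Sertoli A had both *Meioc*-null libraries (93.9 and 81.7 CPM) above both wild-type ones (74.3 and 56.7 CPM), and the log2 fold change was -0.37 (95% interval -0.74 to 0.00397, adjusted p = 0.999). With both Sertoli clusters merged, a choice made after seeing the data, it was -0.30 (-0.64 to 0.04). For *Rara* in Sertoli A the value was 0.08 (-0.27 to 0.42) and for *Rxra* in myoid-like cells -0.16 (-0.50 to 0.17).

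Other genes of the pathway were taken from 7 lists of 53 genes: synthesis and storage of retinoids (11), their breakdown (3), other lipid-binding carriers (3), corepressors (9), coactivators (9), other partners of RXR (10) and known targets of retinoic acid (10), where *Dhrs3* and *Cyp26a1* stand in 2 lists each. In cluster 7, 10 of 42 tested were called, 4 of them higher in wild type and the other 6 lower, or 23.8% against 14.8% of all genes. In cluster 8 these counts were 1 and 16 of 39, or 43.6% against 34.6% of all genes, and the median log2 fold change was -0.48 against -0.03 over all genes. In cluster 9 they were 10 and 16 of 41, or 63.4% against 57.7%. In clusters 1 to 6 between 0 and 3 of 36 to 49 were called. By list, 7 of 8 coactivators tested in cluster 8 were called (87.5%, 1 of them higher in wild type), as were 2 of 9 corepressors (22.2%), 2 of 8 genes of synthesis and storage (25%) and 1 of 5 RXR partners (20%). In cluster 9 coactivators and corepressors had the same share, 7 of 9 (77.8%), and no difference between lists was tested.

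Among known targets, 5 of 7 tested were called in cluster 8, all of them higher in *Meioc*-null cells, or 71.4% against 34.6% of all genes. In cluster 9 the share was 57.1% against 57.7%. *Stra8*, which retinoic acid induces at the entry into meiosis, stood at 15.4 and 16.8 CPM in wild-type cluster 9 and at 521 and 490 CPM in *Meioc*-null. The log2 fold change was -4.89 (SE 0.15, adjusted p = 1.69e-24). It was -4.05 with doublets kept in and -4.21 with the called genes left out of the placing. In cluster 8 *Stra8* was called at 421 and 321 against 1519 and 1636 CPM (-2.05, adjusted p = 7.55e-08). It was called earlier as well, in cluster 3 (58.2 and 58.8 against 190 and 143 CPM, -1.47, adjusted p = 0.000591) and in cluster 4 (42.5 and 39.6 against 97.3 and 72.8 CPM, -1.01, adjusted p = 0.0179), where none of the 9 genes was. With the called genes left out of the placing, both clusters matched a single one, where *Stra8* was at -1.24 and not called (adjusted p = 0.0729), and the cluster 4 call was lost with a filter of a UMI in 25% of cells (0.0773). *Gm4969* was higher in wild type in cluster 7 (87.8 and 101 against 60.9 and 65.6 CPM, 0.63, adjusted p = 0.00636), as *Crabp2* was there, and higher in *Meioc*-null in cluster 9 (-4.24, or -2.29 with the called genes left out of the placing). The cluster 7 call was lost with 15 neighbours (adjusted p = 0.100). Its call in cluster 6 (1.02, adjusted p = 0.0189) was lost by DESeq2 (0.136), without wild type replicate 2 (0.115) and without *Meioc*-null replicate 1 (0.0572). In cluster 8 it was called at -0.48, but not without wild type replicate 1 (adjusted p = 0.0571), and with the called genes left out of the placing the value was -0.06 (adjusted p = 0.787). *Rec8*, a cohesin subunit of meiotic chromosomes, was called in cluster 9 at 1.52 and 1.35 against 19.1 and 15.2 CPM (-3.49, adjusted p = 1.28e-11). It was also called in cluster 8, at 5.15 and 2.68 against 26.0 and 20.6 CPM (-2.62, adjusted p = 1.00e-06). *Kit*, the receptor of differentiating spermatogonia, was called in cluster 8, at 7.36 and 7.44 against 16.6 and 10.1 CPM (-0.77, adjusted p = 0.0378), but not by DESeq2 (adjusted p = 0.147) or without wild type replicate 1 (0.152), wild type replicate 2 (0.181) or *Meioc*-null replicate 1 (0.376), nor with doublets kept in (0.201), with 15 neighbours (0.338) or with the 9 genes and pathway genes allowed in the placing (0.346).

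Of the other lists, cluster 9 had calls in both directions for synthesis and storage (of 8 tested, 1 with more in wild type and 4 with less), coactivators (3 and 4 of 9), corepressors (4 and 3 of 9) and RXR partners (1 and 1 of 6), and the 1 carrier tested was higher in *Meioc*-null. *Aldh1a3*, which makes retinoic acid from retinaldehyde, stood at 8.98 and 5.13 CPM in wild type against 27.4 and 18.9 CPM in *Meioc*-null (-1.69). *Dhrs4*, a reductase of retinaldehyde, stood at 1.37 and 0.570 against 7.32 and 7.11 CPM (-2.98), from 9 and 8 against 23 and 35 UMIs. *Fabp5*, a carrier that takes retinoic acid to another receptor, stood at 6.09 and 4.35 against 45.2 and 30.2 CPM (-2.80). In cluster 7 the 1 carrier tested was called in the other direction, higher in wild type (0.70). The 1 carrier tested in cluster 8 was not called (0.43). Among RXR partners, *Pparg* was higher in *Meioc*-null in cluster 9 (-2.25, or -1.33 with the called genes left out of the placing), and *Thra*, a thyroid hormone receptor, was already higher in cluster 6 (4.04 and 4.61 against 13.6 and 12.5 CPM, -1.57, adjusted p = 0.00366). Of the corepressor genes, *Hdac3* (1.36) was higher in wild type, and *Tbl1x* (-1.29) had more in *Meioc*-null. *Carm1*, a coactivator that methylates histones, was higher in wild type (1.66, or 0.91 with the called genes left out of the placing). Each of these calls in cluster 9 had an adjusted p of at most 3.28e-06.

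**Figure D4:**
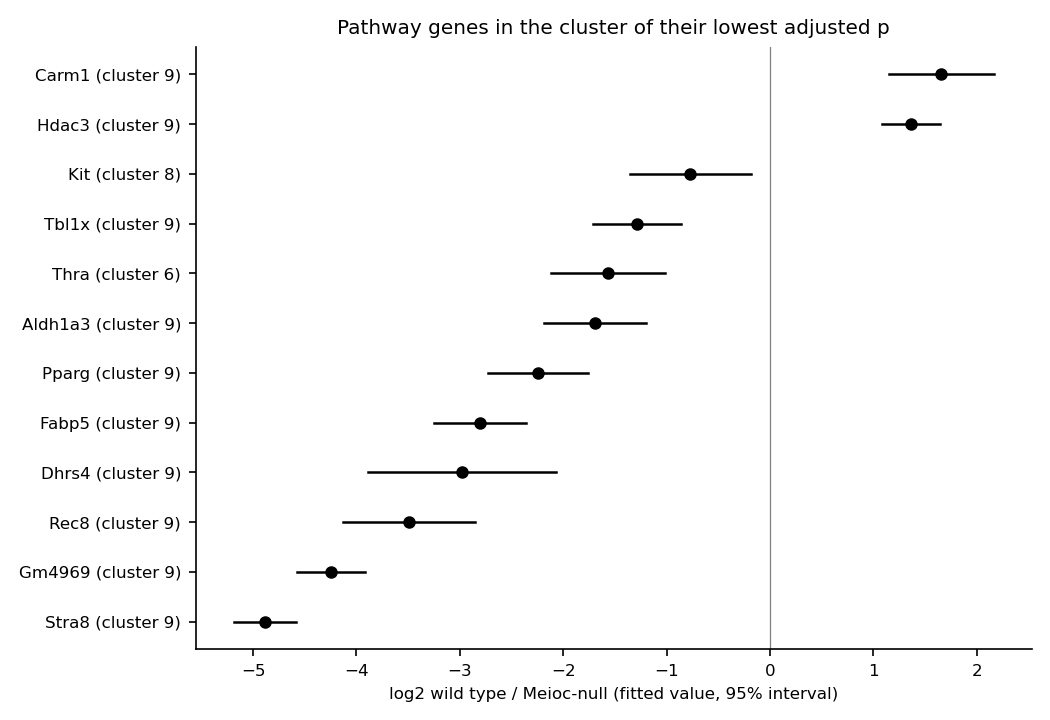
Log2 fold change of wild type over *Meioc*-null (horizontal) with 95% intervals for the 12 pathway genes described here, each in the germ-cell cluster of its lowest adjusted p (given in brackets). *Stra8*, *Gm4969* and *Rec8* lie farthest to the left (-4.89, -4.24 and -3.49), higher in *Meioc*-null, and *Carm1* and *Hdac3* to the right of 0.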

How the data were processed

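The authors made 3′ single-cell libraries (10x Genomics Chromium) from 4 P15 testes, aligned and counted them with Cell Ranger 4.0.0 against mm10 (GRCm38), and deposited raw UMI counts per gene and barcode with no normalization. Barcodes had passed Cell Ranger's cell calling only. From these, cells with over 1000 genes and under 10% mitochondrial UMIs were kept, and the top-scoring barcodes by Scrublet were removed at 0.8% per 1000 barcodes, which took 690 to 996 barcodes per library (9.59 to 13.2%), where the caller's own threshold marked 2.18 to 4.97%.

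Wild-type cells were log-normalised to 10000 and clustered with scanpy 1.11.5 in Python 3.11.15 (2000 variable genes without the 9 genes and the pathway lists, 30 principal components, 20 neighbours, Leiden; germ cells at resolution 0.4), and each cell of all libraries was then given the majority cluster of the 30 wild-type cells nearest to it. A class name needed 3 markers with a UMI in 25% of cells and a second class scoring under 0.85 of the best. Endothelium and macrophage lists named no cluster here. Counts were summed per library and cluster, genes with at least 40 UMIs were fitted in edgeR 4.0.16 (R 4.3.3; TMM, robust quasi-likelihood, genotype only), and p-values were adjusted over all genes of a cluster. DESeq2 1.42.0 was an alternative. On simulated data for cluster 7 (12304 genes) 67% of genes changed by 1 log2 unit and 95% of those changed by 2 were recovered, and 11.0% of calls were false.

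Replicate numbers are littermate pairs and batches per the labels. Deviations of the pair members from their genotype means correlated at 0.243 to 0.369 in the 9 germ-cell clusters and at -0.156 to 0.283 in 4 somatic ones. The 9 genes, the pathway lists and the markers were chosen with earlier results of these data known. Named were the 9 genes, *Stra8*, *Kit*, *Rec8* and *Gm4969*, the 12 pathway genes with the largest absolute log2 fold change among calls (1 of them is not reported here), each in the cluster of its lowest adjusted p, and the 3 genes most alike to each gene with at least 100 wild-type UMIs. Gene positions came from GENCODE vM21, which held 32158 of 32285 gene IDs. Counting error is covered by the stated limits for 0 counts (3 counts), and differences between mice are not.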

Additional observations from a re-analysis of the deposited data

Results flagged for a closer look

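The genotype effect (log2 of wild type over *Meioc*-null) in early spermatocyte-like cluster 9 differed from that in differentiating clusters 2 to 6 for 4 genes, by a test of the difference itself in edgeR. The difference was -1.04 for *Rara*, -0.99 for *Rarg*, -0.70 for *Crabp1* and -0.45 for *Rxrb*, where 39.4% of all genes passed the same test. None of the 4 was past the threshold without wild type replicate 2 (*Crabp1* at -0.15 and *Rxrb* at -0.25) or without *Meioc*-null replicate 2. *Crabp2* was also past the threshold, at -4.0, but this value rests on 0 and 5 wild-type UMIs in cluster 9, too few for a test there, and became -9.86 without wild type replicate 2, so it is not counted.

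A shallow cluster left out of every genotype test, led by *Gzmc*, *S100a4* and *Cd52* and with a wild-type median of 2880 UMIs per cell, held *Crabp1* at a mean of 616.6 CPM in wild type, against 606.9 CPM in cluster 2. By library it was 532 and 701 CPM in wild type against 542 and 441 CPM in *Meioc*-null. It had 4 of the 5 germ-cell markers detected and none of the 6 macrophage markers. The germ-cell markers stood at 56.5 to 84.5% of their germ-cell level by library and *Crabp1* at 162 to 295%, and the cluster stayed unnamed.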

How the results depend on the processing

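Against 12 calls of these genes in germ-cell clusters, DESeq2 gave 6, a filter on genes with a UMI in 25% of cells 4, and Bonferroni over all genes and clusters 0, while fits without 1 library gave 4 to 11 (without wild type replicate 2: 4; without *Meioc*-null replicate 1: 8). Against 6 genes with a call, these were 3 with the 25% filter, 0 with Bonferroni and 3 to 6 without 1 library. A mitochondrial limit of 5% gave 0 for both, with 6398 cells and 1 testable germ-cell cluster left. Against 5 genes past the threshold for an effect that differed between stages (*Crabp2* included here), no low-count filter gave 3, no doublet removal 3, and fits without 1 library 1 to 5 (1 without wild type replicate 2, 2 without *Meioc*-null replicate 1, 1 without *Meioc*-null replicate 2). The cause was not tested. With the replicate number as a block in place of no block, 12 of the 12 calls remained and no other call changed. Somatic calls were 0 under each alternative, those without 1 library and with merged Sertoli clusters included. Of 172 alternative values for the called effects of these genes, 129 kept direction and call, 43 lost the call and 0 changed sign. These are only the cases that could be tested. With the mitochondrial limit of 5% none of the 12 calls could be tested. With the 25% filter 4 of the 12 could, and all 4 remained. Bonferroni also ended the calls of *Thra* in cluster 6, *Stra8* in cluster 4, *Gm4969* in clusters 6 to 8, *Kit* in cluster 8 and *Tbl1x* in cluster 9 (adjusted p from 0.0670 to 1). Of 32 alternative levels, 23 stayed within 1 SD of the wild-type libraries, and 7 moved by over 1.5 times. With the mitochondrial limit of 5%, the log2 fold change of *Stra6* was -1.13 in the 1 cluster that matched Sertoli A and B, and the level of *Rarg* in cluster 1 went from 23.0 to 13.2 CPM, *Rarb* in cluster 2 from 2.61 to 1.21 CPM, *Rarb* in Sertoli B from 0.852 to 1.62 CPM and *Stra6* in cluster 1 from 0.538 to 0 CPM. With doublets kept in, *Crabp1* in Sertoli B went from 54.9 to 119.8 CPM, *Rarb* there from 0.852 to 0.192 CPM and *Crabp2* in fibroblast-like cells from 1.11 to 1.89 CPM. At these depths *Rarb*, *Rxrg* and *Stra6* could not be compared between genotypes in most germ-cell clusters.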
